A study of Caenorhabditis elegans with 2 samples.

Results

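The small heat shock protein genes of Caenorhabditis elegans described here are 10 genes: hsp-16.1, hsp-16.11, hsp-16.2, hsp-16.41, hsp-16.48, hsp-16.49, hsp-12.3, hsp-12.6, hsp-25 and hsp-43. They were taken by name from the RefSeq annotation of WBcel235 (ce11), and all 10 were found among its 19971 nuclear protein-coding genes. Binding of RNA polymerase III was mapped through its largest subunit, RPC-1, by chromatin immunoprecipitation and sequencing with an antibody against GFP. The animals were young adult hermaphrodites of strain JK1107, glp-1(q224) III, carrying a stable RPC-1 transgene with GFP and FLAG at the C-terminal end. Both samples, replicates 1 and 3 of the single group, share this genotype, so no untagged or untreated group stands beside them. Whole animals were used, so signals from different tissues are mixed, and the labels give neither the culture temperature nor a heat treatment. The q224 allele is temperature-sensitive and impairs the germ line at the restrictive temperature, as background. Chromatin was sheared with a Bioruptor for replicate 1 and a microtip for replicate 3, so shearing and replicate cannot be told apart.

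Small heat shock proteins share the alpha-crystallin domain and hold unfolding proteins in a soluble state without using ATP. The hsp-16 genes lie in divergent pairs and are textbook targets of the heat shock factor HSF-1, whose binding element is built of GAA and TTC units. They are transcribed by RNA polymerase II, whereas RNA polymerase III makes tRNAs and other short RNAs. hsp-12.6 is known as a gene raised when insulin signalling is reduced, and hsp-25 and hsp-43 encode members that are not strongly induced by heat.

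Of the 10 genes, hsp-16.2 and hsp-16.41 had a summit in the IDR list, and they shared it. IDR, the irreproducible discovery rate, measures how far the ranks of peaks repeat between replicates. A summit is the single highest base of a peak, and one counted for a gene when it lay between 1000 bp upstream of the annotated 5′ end and the gene's end. Their neighbours in sequence, hsp-16.1, hsp-16.48, hsp-16.49 and hsp-16.11, had no summit in any of the 4 ce11 lists (IDR, pooled, replicate 1, replicate 3). The other 4 genes had summits in the pooled or replicate lists, and the pooled ones had signals below the lowest in the IDR list.

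The stretches between the divergent hsp-16 genes are shown because one of them carries the IDR summit and the other ones, built of like sequence, carry none. Each was read from the ce11 genome in the direction from the hsp-16.1-like gene (hsp-16.2, hsp-16.1 or hsp-16.11) to the hsp-16.48-like gene. Capitals mark paired units of the heat shock element, GAANNTTC or TTCNNGAA, found on either strand. hsp-16.1, hsp-16.48 and hsp-16.49 have no annotated 5′ UTR, so 38 bases beside hsp-16.1 and 93 beside hsp-16.48 and hsp-16.49 were left out, the lengths of the annotated 5′ UTRs of hsp-16.11 and hsp-16.41. The first stretch is chrV:1804958-1805177 on the plus strand, the next chrV:9087821-9088037 on the plus strand and the last chrV:9089860-9090076 on the minus strand.
hsp-16.2 to hsp-16.41: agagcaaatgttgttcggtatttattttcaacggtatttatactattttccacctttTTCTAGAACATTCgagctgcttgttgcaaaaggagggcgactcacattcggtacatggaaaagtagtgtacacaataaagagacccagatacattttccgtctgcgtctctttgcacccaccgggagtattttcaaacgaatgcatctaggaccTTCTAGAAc
hsp-16.1 to hsp-16.48: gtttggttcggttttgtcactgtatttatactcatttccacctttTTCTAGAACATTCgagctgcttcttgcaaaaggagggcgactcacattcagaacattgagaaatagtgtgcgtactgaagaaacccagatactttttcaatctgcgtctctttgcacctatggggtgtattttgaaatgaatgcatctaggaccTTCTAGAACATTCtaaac
hsp-16.11 to hsp-16.49: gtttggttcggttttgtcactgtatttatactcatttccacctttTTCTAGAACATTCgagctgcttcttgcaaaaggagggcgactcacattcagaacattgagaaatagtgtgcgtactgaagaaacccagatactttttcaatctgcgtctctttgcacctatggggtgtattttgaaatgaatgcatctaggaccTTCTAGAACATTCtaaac
The last 2 stretches were identical over all 217 bases. The first had 181 identical bases in 232 alignment columns against them (78.02% identity). Each stretch held 2 separate runs of heat shock units, and the second run of the first stretch continued past the annotated 5′ end of hsp-16.41.

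The shared IDR summit lay at V 1805167, in the 220 bp between hsp-16.2 (V, 1804334 to 1804957, minus strand) and hsp-16.41 (V, 1805178 to 1805875, plus strand). It was 11 bp upstream of the annotated 5′ end of hsp-16.41 and 210 bp upstream of that of hsp-16.2, which places the IDR summit at the hsp-16.41 side of the shared promoter. The summit was 2 bp from the heat shock units beside hsp-16.41 and 140 bp from those beside hsp-16.2. The summit of replicate 1 was 0 and 143 bp from the same units, and that of replicate 3 was 65 and 77 bp from them. The units beside hsp-16.41 were thus the nearest in both replicates, but in replicate 3 the distances were much alike. The IDR peak ran from V 1805058 to 1805242 and thus crossed the 5′ end of hsp-16.41. The nearest RNA gene was a piRNA gene, 21ur-14173, at 11599 bp, and the nearest RNA gene of another class was the ncRNA gene T10B5.12 at 50614 bp. No annotated RNA gene therefore lay within 500 bp of this peak.

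The signal of the shared peak, the authors' own value per peak, was 189 and its rank 961 of 1860 in the IDR list. In the pooled list it was the same peak with the same signal and rank, among 30000. Signals and ranks in the IDR and pooled lists were also equal at the comparison genes described below. The IDR rank is there the pooled rank and does not give the rank in either replicate. The list of replicate 1 had a summit at V 1805170 with a signal of 190 and rank 884 of 29914. The list of replicate 3 had a summit at V 1805104, which is 74 bp upstream of hsp-16.41 and 147 bp upstream of hsp-16.2, with a signal of 27.5 and rank 1128 of 30000. The summits of the replicates were 66 bp apart. Signal scales differ between the replicate lists, so the replicates were set side by side by rank. Both fell within the strongest 1860 peaks, the length of the IDR list. The plot of best ranks shows this pair apart from the other 8 genes.

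**Figure D1:**
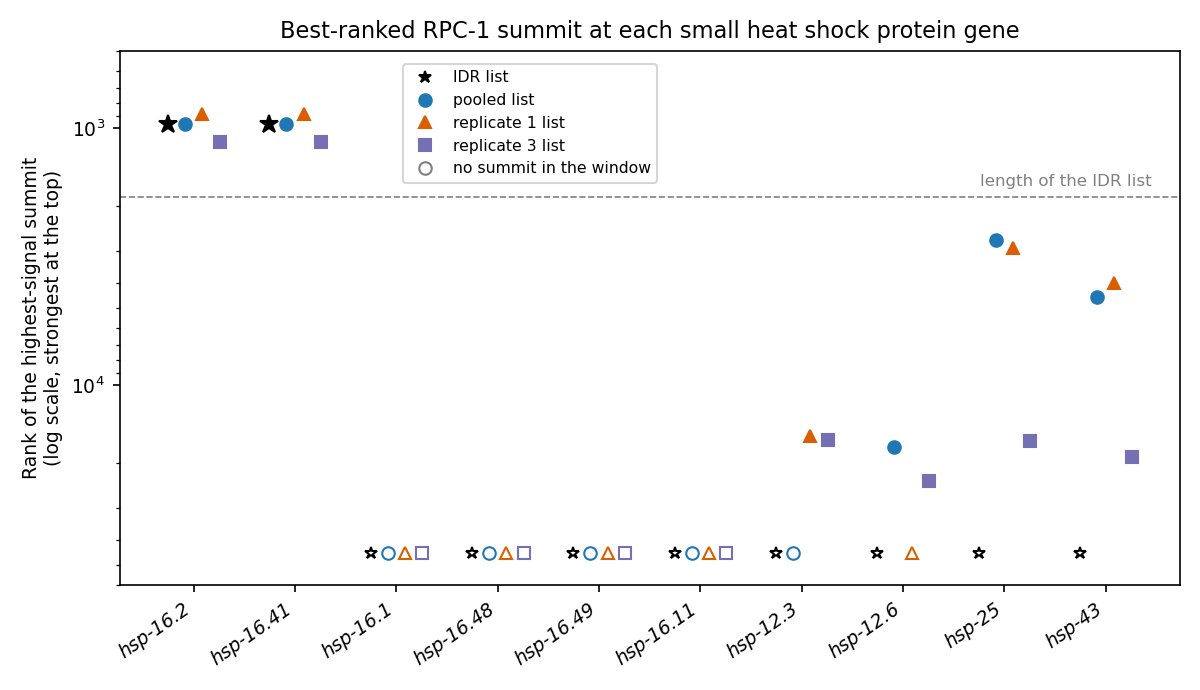
Rank of the highest-signal summit of each gene (log axis, strongest at the top) in the IDR, pooled, replicate 1 and replicate 3 lists; open symbols mark lists with no summit in the gene's window and the dashed line the 1860 peaks of the IDR list. hsp-16.2 and hsp-16.41 share 1 peak, with ranks of 884 to 1128, and the best rank of any other gene is 2715, at hsp-25.

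Among protein-coding genes, 581 of 19971 had a higher best signal than hsp-16.2 and hsp-16.41 in the IDR list, 535 in replicate 1 and 678 in replicate 3. The IDR list held 592 summits within 1000 bp upstream of a protein-coding gene, with a median signal of 109. Over 500 bp from every annotated RNA gene other than those of piRNAs there were 394 such summits, with a median of 86.5 and quartiles of 64.9 and 157. Of these 394, 86 (21.8%) were stronger than the hsp-16.2 and hsp-16.41 peak. Among protein-coding genes ordered by their highest IDR signal, R148.8 (rank 959, signal 190, summit 459 bp inside the gene) stood next above it. F32B4.1 (rank 962, signal 187, summit 611 bp upstream) stood next below. These neighbours in rank are named by their rank in 1 list alone, and differences of 1 to 2 ranks are far smaller than the difference between the replicates' ranks.

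IDR summits as close to an annotated 5′ end as the 11 bp at hsp-16.41 were few, but not those as close as at hsp-16.2. Over the 607 genes with an upstream IDR summit more than 500 bp from tRNA, snoRNA, snRNA, rRNA and other RNA polymerase III genes, the strongest one lay at a median of 289 bp from the 5′ end, with quartiles of 166 and 490 bp. Within 11 bp, as at hsp-16.41, there were 7 genes (1.15%), hsp-16.41 included, and within 210 bp, as at hsp-16.2, 222 (36.6%). In replicate 3 the distance from hsp-16.41 was 74 bp, so the value of 11 bp is only as precise as the 66 bp between replicates. The share of genes within 74 bp was not counted. Distances were taken from the annotated 5′ end, which includes a 5′ UTR of 93 bases at hsp-16.41 and none at hsp-16.48 or hsp-16.49. The reference points of the 607 genes may thus be unlike.

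Counts were read against all protein-coding genes. An IDR summit was found in the window of 2 of the 10 genes (20%) and of 6.44% of all 19971. Because these 2 share 1 peak, they are a single observation. The 10 genes were also chosen with earlier results of these data known. In the pooled list 5 of 10 had a summit, against 53.9% of all genes. In replicate 1 it was 5 of 10 against 51%, in replicate 3 it was 6 of 10 against 64.3%, and in both replicates 5 of 10 against 39.7%. Beyond the IDR list the shares of all 10 genes were thus near those of other genes, as the plot of shares shows. These counts keep hsp-16.1, hsp-16.48, hsp-16.49 and hsp-16.11, which had no summit in any list and lie in repeated sequence, described below. Whether the repeat lowers the shares was not tested. The shared peak of hsp-16.2 and hsp-16.41 also counts for 2 genes in each list. The windows ran from 1487 bp at hsp-16.48 and hsp-16.49 to 6182 bp at hsp-25, with a median of 3006 bp over all genes, and longer windows offer more room for a summit.

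**Figure D2:**
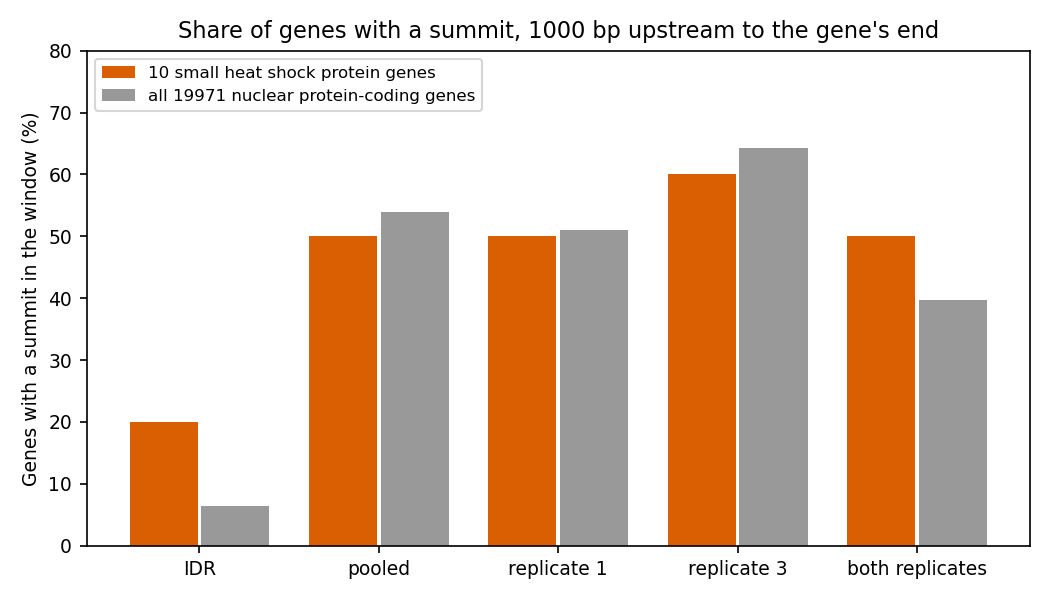
Percent of genes with a summit between 1000 bp upstream and the gene's end in each list and in both replicates, for the 10 small heat shock protein genes and for all 19971 nuclear protein-coding genes. In the IDR list the shares are 20% and 6.44%, and in the pooled list 50% and 53.9%.

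Restricting the window to the 1000 bp upstream gave every gene the same length. An IDR summit was then found at 2 of 10 (3.71% of all genes) and a pooled one at 5 of 10 (29.2%). Replicate 1 had an upstream summit at 3 of 10 (28.4%) and replicate 3 at 3 of 10 (30.5%). Both replicate lists had an upstream summit at 2 of 10, hsp-16.2 and hsp-16.41 with their shared peak, against 14% of all genes. Upstream summits of the other genes were at hsp-12.6, hsp-25 and hsp-43 in the pooled list, with signals of 13.6, 9.02 and 15.5, where the median of the whole list was 15.0.

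The divergent pairs were compared as pairs. Among 1682 neighbouring protein-coding pairs with 5′ ends at most 1000 bp apart, 124 (7.37%) had an IDR summit between the 5′ ends, with a median signal of 127 and quartiles of 77.7 and 274. In the pooled list 26.8% of the pairs had one. Of the 3 hsp-16 pairs, hsp-16.2 and hsp-16.41 had one in each list, and 42 of the 124 pairs had a stronger one. The pairs hsp-16.1 with hsp-16.48 and hsp-16.49 with hsp-16.11 had none in the IDR, pooled or replicate lists.

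These 4 genes lie in an inverted repeat. hsp-16.1 (V, 9087293 to 9087782, minus strand) and hsp-16.48 (V, 9088131 to 9088617, plus strand) form one arm, and hsp-16.49 (V, 9089280 to 9089766, minus strand) and hsp-16.11 (V, 9090077 to 9090604, plus strand) the other. From the snRNA gene T27E4.11 to the end of hsp-16.48, 1759 of 1760 bases matched the other arm. The coding sequences of hsp-16.1 and hsp-16.11 were identical over 438 bases, and those of hsp-16.48 and hsp-16.49 over 432 bases. hsp-16.2 and hsp-16.41 differ from them: hsp-16.2 had 90.64% coding identity with hsp-16.1, and hsp-16.41 had 92.13% with hsp-16.48. Reads from hsp-16.1 and hsp-16.11, or from hsp-16.48 and hsp-16.49, can therefore not be told apart.

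The repeat was measured by words of 36 bases that occur once in the genome on either strand. None of the words in the arms occurred once, over 1881 bp in the arm of hsp-16.1 and 1891 bp in that of hsp-16.11. In the gene windows, 0% of the words at hsp-16.48 and hsp-16.49, 2.82% at hsp-16.1 and 5.29% at hsp-16.11 occurred once. At hsp-16.2 it was 99.1%, at hsp-16.41 98.7%, and at hsp-12.3, hsp-12.6, hsp-25 and hsp-43 100%. The median over all protein-coding genes was 99.9%, and 0.941% of them had a lower value than hsp-16.1. How reads that match several places were treated is not given in the sources used here, and the part of the repeat in the lack of summits was not tested.

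Summits lay around the arms but not in them. The pooled list had one 26 bp outside the arm of hsp-16.1, at V 9086835, with a signal of 9.68 and rank 26425. It had another 186 bp outside the arm of hsp-16.11, at V 9091232, with a signal of 27.2 and rank 5099. Replicate 1 had summits 5 and 54 bp outside the arms, with signals of 10.4 and 3.8. It also had one at V 9088900, in the 414 bp between the arms, with a signal of 11.7. Replicate 3 had no summit within 500 bp of either arm. The nearest IDR summit, at V 9095845, was 5241 bp from hsp-16.11 and 8063 bp from hsp-16.1.

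The snRNA genes T27E4.11 (V, 9086858 to 9087021) and T27E4.10 (V, 9090876 to 9091039) lie within 500 bp of these windows. T27E4.10 lies inside the arm of hsp-16.11, and T27E4.11 begins just outside the arm of hsp-16.1. The summits next to the arms were 23 bp (pooled) and 2 bp (replicate 1) from T27E4.11. On the other side they were 193 bp (pooled) and 61 bp (replicate 1) from T27E4.10. None of them was in the IDR list.

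**Figure D3:**
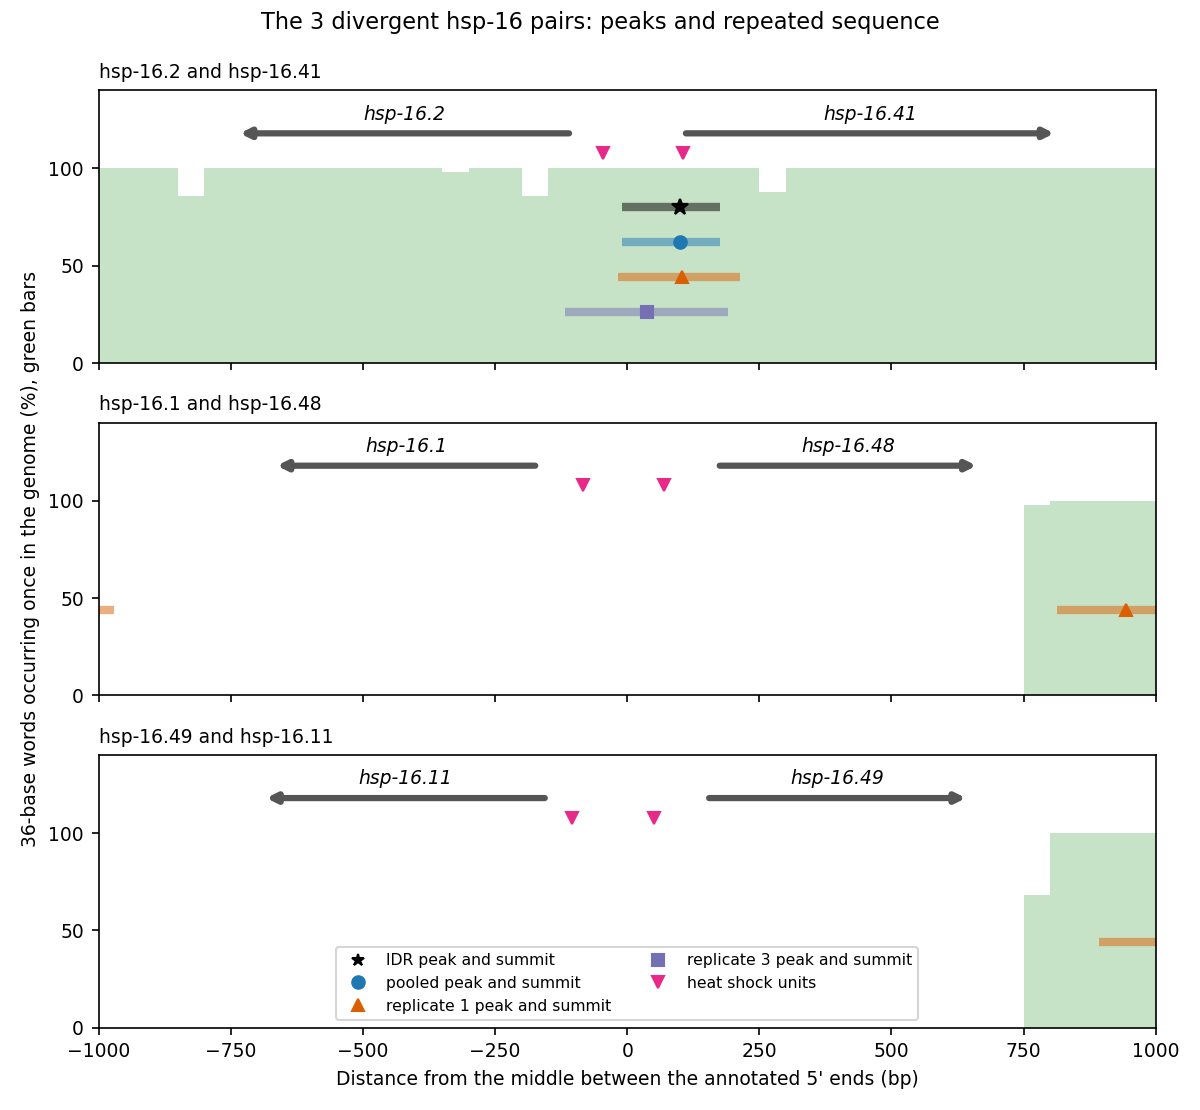
The 3 divergent hsp-16 pairs by distance from the middle between their annotated 5′ ends (bp): genes as arrows in the direction of transcription, peaks as bars with their summits, heat shock units as triangles, and green bars for the percent of 36-base words, per 50 bp, that occur once in the genome. The pair hsp-16.49 and hsp-16.11 is drawn from the minus strand. Peaks between the genes are seen at hsp-16.2 and hsp-16.41 in all 4 lists, and at the other pairs, where the green bars are at 0, in none.

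Repeated words were also counted at summits. In the nuclear genome 7.93% of the words occurred more than once. The word at the summit did so for 1.56% of pooled, 1.87% of replicate 1 and 1.64% of replicate 3 summits, and for 8.48% of IDR summits. With under 50% of the words in the window occurring once, a limit set after seeing the data, 544 protein-coding genes were left. Of these, 1.29% had an IDR summit and 10.3% a pooled one, against 6.44% and 53.9% of all genes. hsp-16.1, hsp-16.11, hsp-16.48 and hsp-16.49 are 4 of the 544.

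An IDR summit was found at 7 of these 544 genes. The divergent HSP70 genes F44E5.4 and F44E5.5, with 9.87% and 10% of words occurring once, shared an IDR peak with a signal of 2890 and rank 348. The word at that summit occurs once in the genome, and 54.5% of the words within 250 bp do. The summits of all 7 genes under 50% that had an IDR summit were at words that occur once. In the arms of hsp-16.1 and hsp-16.11 no word occurs once, so these 7 genes are unlike the arms in this.

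Heat shock elements were counted in promoters, taken as 250 bases before to 50 after the annotated 5′ end. The full element, 3 alternating GAA and TTC units with 2 bases between neighbours, was found on either strand in all 6 hsp-16 genes and in none of the 4 others. It occurred in 393 of 19971 promoters (1.97%). GAANNTTC was found in 18.5% and TTCNNGAA in 19% of all promoters and in the same 6 genes, each full element holding both. The TATA box motif TATAAA was found in 37.9% of promoters and in 7 of the 10 genes. It was found in neither hsp-16.48, hsp-16.49 nor hsp-12.6. The match of hsp-16.41 is the same site as that of hsp-16.2, V 1804994 to 1804999. The other hsp-16 pairs also held TATAAA between their genes, at V 9087845 to 9087850 and 9090047 to 9090052. These sites fell outside the promoters of hsp-16.48 and hsp-16.49, which have no annotated 5′ UTR. Genes of a pair likewise shared full heat shock elements. The B-box, an internal promoter element of tRNA genes, was found in 0.0751% of promoters and in none of the 10. A match is a string of letters, and the hsp-16 genes with and those without a summit all held a full element.

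Among the 4 remaining genes, hsp-25 (X, 6034463 to 6039644, minus strand) came closest to the IDR list. hsp-25 encodes a small heat shock protein found in muscle. Its strongest pooled summit lay 3653 bp inside the gene, with a signal of 39.5 and rank 2715, and the lowest signal of the IDR list was 54.3. Replicate 1 had a summit 3678 bp inside the gene with a signal of 28 and rank 2924. In replicate 3 the summit at 3543 bp had a signal of 6.60 and rank 18675. The replicates thus had summits 135 bp apart but ranks that differed widely. The strongest summit of replicate 3 at hsp-25 lay elsewhere, 317 bp inside the gene, with a signal of 7.11 and rank 16553. The remaining hsp-25 summits had signals of 18.8 and 9.02 in the pooled list, 5.82 in replicate 1 and 5.73 in replicate 3. The ncRNA gene C09B8.10 was 1869 bp from the strongest pooled summit and 196 bp from the weakest of replicate 3. The piRNA gene 21ur-12247 was 327 bp from the pooled summit of 18.8 and 387 bp from the strongest of replicate 3. The ncRNA gene C09B8.12 was 416 bp from the pooled summit of 9.02.

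hsp-43 (X, 6233151 to 6235543, minus strand) encodes another member with an alpha-crystallin domain. Its pooled summits had signals of 29, 586 bp inside the gene at rank 4559, and 15.5, 800 bp upstream at rank 14275. Replicate 1 had the same summits, with signals of 19 and 22.2, and another inside the ncRNA gene C14F11.20 with 7.27. Replicate 3 had a single summit in the window, 188 bp inside the gene, with a signal of 6.51 and rank 19095, and another with a signal of 10.3 just 33 bp outside the window. No summit in the window of replicate 3 was within 250 bp of one of replicate 1, and the closest were 398 bp apart. The replicate 3 summit outside the window, 1033 bp upstream, was within 250 bp of the replicate 1 summit 800 bp upstream. C14F11.20 was 389 bp from the pooled and replicate 1 summits 800 bp upstream and 424 bp from the replicate 3 summit in the window.

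hsp-12.3 (IV, 9444791 to 9445314, minus strand) and hsp-12.6 (IV, 9446229 to 9447228, minus strand) are neighbours in tandem and share no peak. hsp-12.3 had no IDR or pooled summit in its window. Replicate 1 had a summit 459 bp inside the gene (signal 8.43, rank 15751) and replicate 3 one 147 bp inside it (signal 7.17, rank 16339), 312 bp apart. A stronger peak lay 167 bp past the 3′ end of the gene in the pooled list, with a signal of 47.7 and rank 2153. It was 18 bp from the snRNA gene F38E11.10 and 15 bp from the ncRNA gene F38E11.24, which overlap. The same place held a summit of 47.4 (rank 1664) in replicate 1 and of 7.79 (rank 14084) in replicate 3. The strongest signal beside hsp-12.3 thus lay at these RNA genes, outside the window. The in-gene summit of replicate 1 was 89 bp from F38E11.24.

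hsp-12.6 had a pooled summit 212 bp upstream, with a signal of 13.6 and rank 17362, and a summit of replicate 3 at 120 bp upstream, with 5.63 and rank 23592. Replicate 1 had none in the window. The piRNA gene 21ur-14949 lies inside hsp-12.6, 336 bp from the pooled summit, and the nearest RNA gene of another class was 2674 bp away.

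**Figure D4:**
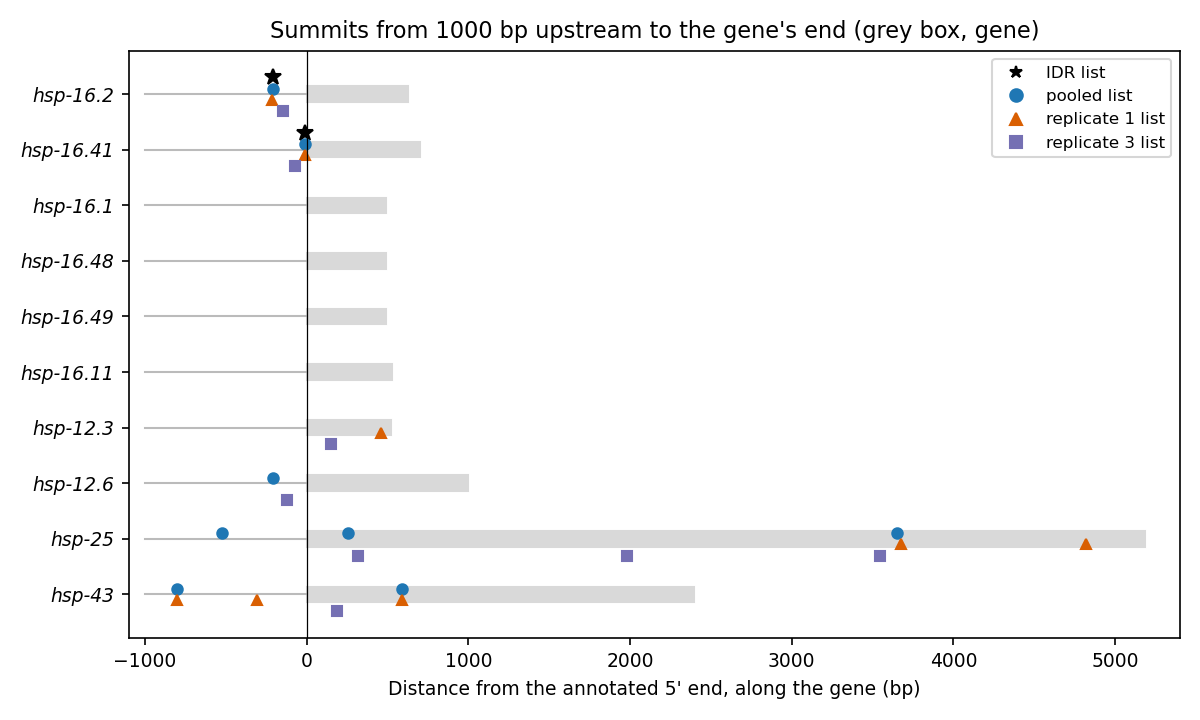
Summits of the 4 lists by distance from the annotated 5′ end (bp) for each gene, from 1000 bp upstream (grey line) to the gene's end (grey box). hsp-16.2 and hsp-16.41 have a summit upstream in each list, 4 hsp-16 genes have none, and the summits of hsp-25 and hsp-43 spread over gene and upstream sequence.

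The rest of the family and other genes of the heat shock response were counted by the same rule. These gene lists were chosen with earlier results of these data known. Their counts and medians are description only and no test of whether such genes are bound more often than others. Of 6 other small heat shock protein genes, none had an IDR summit, 4 had a pooled one and 3 had one in both replicates, against 6.44%, 53.9% and 39.7% of all genes. Their pooled signals were 32.7 at hsp-12.1, 26.4 at sip-1, 25.1 at hsp-17 and 9.41 at hsp-12.2. hsp-16.20 and hsp-16.21, in sequence that is 95.4% and 100% unique, had no summit in any list. Of 21 genes of the heat shock factor, its regulators and other chaperones, 13 had an IDR summit (6.44% of all genes) and 17 had one in both replicates (39.7% of all genes). F44E5.4 and F44E5.5 count as 2 of these genes but share 1 peak. These 13 were F44E5.4 and F44E5.5 (2890), dnj-13 (1300), hsp-60 (1270), hsp-110 (988), hsp-1 (768), dnj-12 (379), hsp-90 (283), hsp-70 (217), bag-1 (195), hsp-6 (183), sti-1 (99.3) and dnj-19 (78.5), by IDR signal. The summits of dnj-13, hsp-6 and dnj-19 lay inside an annotated ncRNA gene, and those of hsp-110 and hsp-1 were 54 and 102 bp from one. The median IDR signal of these 13 was 379, against 143 over the 1287 genes with one and 189 at hsp-16.2 and hsp-16.41. The heat-inducible hsp-70 (rank 924, summit 82 bp upstream), the co-chaperone gene bag-1 (rank 954) and the mitochondrial chaperone gene hsp-6 (rank 968) stood near the hsp-16.2 peak in rank. The heat shock factor gene hsf-1 had no IDR summit and a pooled signal of 12.7.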

How the data were processed

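RPC-1 binding was measured in 2 samples, labelled biological replicates 1 and 3 and taken from separate biosamples. The authors deposited ce11 peak lists called per sample and on both samples pooled, each against a control alignment, and an IDR list derived from these, per the file headers. The deposited signal is a score per peak. It was used to rank peaks and to give medians and quartiles within a list. Pooled signals were also set against those of the IDR list, but signals were not compared between the replicate lists. The deposited −log10 q-values were not used. The lists hold no read counts, so depth is unknown and no interval that needs it is given. Aligner, peak caller and read length: not given in the sources used here. Lists on ce10 were not used.

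Gene positions and sequences came from RefSeq WBcel235, the assembly of the ce11 lists. A summit was column 2 plus column 10, made 1-based. Words of 36 bases were counted over the genome on both strands. Alignments were global (Biopython 1.88, match 2, mismatch -3, gap opening -6, gap extension -1), and counting used Python 3.11.15, numpy 2.4.6 and pandas 2.3.3. Window counting was tested on simulated data. No statistical test was run: a single group without counts gives none, and members share sequence and peaks. The members and gene lists were chosen with earlier results of these data known. Genes named in the text are all 10 members, the closest RNA genes, genes of the comparison lists with an IDR summit and the neighbours in IDR rank. The other small heat shock protein genes and hsf-1 were named after their values were seen. The older name daf-21 was counted once, as hsp-90. Alternatives changed the window, the use of summit or interval, RNA gene neighbours, the list depth and the replicate.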

Additional observations from a re-analysis of the deposited data

How the results depend on the processing

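Of 42 alternative values, 34 were counted as the same and 8 as moved. A count was the same when it stayed within 1.5 times the main count. Among the ranks, those of hsp-12.6, hsp-25 and hsp-43 without replicate 1 were counted as moved. A rank with 1 replicate left out is the rank in the other replicate's own list, so it adds nothing to the replicate ranks given above. hsp-16.2 and hsp-16.41 stayed the 2 genes with an IDR summit with windows of 500 or 250 bp and with the upstream part alone. The same held with interval overlap and without summits near small RNA genes. Apart from interval overlap, these settings could not change the count. The shared summit is 11 and 210 bp upstream, has no RNA gene within 500 bp, and a narrower window adds no gene. The 34 values include such settings, and the rank of the shared peak is counted for each of its 2 genes. An IDR list needs both replicates, so with 1 left out the strongest 1860 peaks of the other replicate's list took its place, and its full list took the place of the pooled list. In the strongest 930 peaks of the IDR list the count of genes was 0 and that of pairs 0, because rank 961 lies below them. The count of 5 genes with a summit in both replicates was 2 in the upstream window alone (14% of all genes) and 2 in the stronger 50% of each replicate list (23.1% of all genes), shares near those of all genes. It was 3 (25.3% of all genes) with summits within 250 bp of each other, an alternative chosen after seeing the data. With 1 replicate left out, the best rank ran from 884 to 1128 at hsp-16.2 and hsp-16.41, from 2924 to 16553 at hsp-25 and from 4018 to 19095 at hsp-43. At hsp-12.6 it was 23592 without replicate 1, and there was no value without replicate 3. The cause was not tested. The pooled count of 5 ran from 5 to 6 with 1 replicate left out, and in the strongest 1860 peaks of either replicate's list the gene count was 2 and the pair count 1. No paired analysis was possible because there is a single group. Unknown depth limits all statements on genes without a summit.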
